A study of Bos taurus with 20 samples.

Results

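The fourth day of low serum was the step from 72 h to 96 h in a time course of bovine satellite cells. It was covered by 8 of the 20 libraries of the series, the 4 replicates A to D harvested at 72 h and the 4 harvested at 96 h, chosen by their labelled times. The 4 libraries at 48 h were added to measure the third day, from 48 h to 72 h. The cells came from Belgian Blue cattle and were grown on collagen-coated plastic in medium with 20% fetal bovine serum, then moved in 1 step to differentiation medium with 2% serum. Every library at 48 h, 72 h and 96 h thus came from cells that had been in 2% serum since the start. Between these groups the labels give no difference other than time and batch. The 0 h libraries, used below for the first day, came from cells still in 20% serum. Polyadenylated RNA was sequenced. Per the labels, replicates A and B were batch 1 and replicates C and D were batch 2, which gives 2 libraries per time point in each batch. The replicates are called biological, but the sources used here do not say whether they came from different animals, so p-values measure the spread between these cultures.

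Satellite cells are the resident stem cells of skeletal muscle. When growth factors are withdrawn in culture they leave the cell cycle, turn on the muscle regulatory transcription factors and fuse into multinucleated myotubes. Fusion and the assembly of the contractile apparatus then go on for days, so a late step such as the fourth day compares cultures that have already been differentiating for some time. In such bulk cultures fewer cells of a type and less RNA per cell cannot be told apart.

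The deposited table names genes by Ensembl cattle identifiers alone, and the gene table used here paired 0 of the 27607 identifiers with a symbol. Lists of muscle, cell cycle, matrix, metabolic and other cell type genes could therefore not be read, the labelled cell type could not be checked against its markers, and genes are described here by what they did over time. The 4 genes named first below had the largest change of their class among genes that averaged at least 10 CPM (CPM, counts scaled to library size) and whose libraries at 72 h and 96 h did not overlap. Scarcer genes of each class changed more.

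Total counts ranged from 23754399 to 37424585 at 72 h and from 21100797 to 35140615 at 96 h. After a filter on low counts 14636 genes were tested. Replicate C at 96 h had a scaling factor of 0.837, where the other 3 libraries lay between 0.858 and 0.861, and replicate D at 96 h stood nearer to the 72 h libraries than replicate C did, as described below.

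More than 1 in 3 of the genes tested changed on the fourth day, most of them by little. The test called 5459 genes (37.3% of those tested), 2824 higher (19.3%) and 2635 lower (18.0%) at 96 h than at 72 h (edgeR quasi-likelihood test, adjusted p under 0.05). With library sizes as scaling, 1984 were called higher and 3967 lower. The median change was 0.43 on the log2 scale for the genes called higher and -0.33 for those called lower, beside 0.01 over all genes tested. Of the rises 33.3% were smaller than 1.25-fold, and of the falls 47.7%. Large rises were more frequent than large falls, with 363 rises and 172 falls of 2-fold or more. This order held with the library sizes as scaling (292 and 216) and with each of the 8 libraries left out (from 312 and 153 without replicate A at 96 h to 434 and 242 without replicate D at 96 h). In 4168 genes (28.5%) the 4 libraries at 96 h did not overlap the 4 at 72 h, 2146 above (14.7%) and 2022 below (13.8%). From 48 h to 72 h 31.3% of genes showed this, 15.4% upward and 15.9% downward.

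Rises and falls involved genes of different abundance. The genes called higher had a median level of 21.7 CPM over both times and those called lower 35.6 CPM, with 18.3 CPM for all genes tested. The 2-fold changes were found mostly among scarce transcripts. The 363 genes that rose 2-fold went from a median of 1.10 CPM at 72 h to 3.19 CPM at 96 h, and the 172 that fell 2-fold from 1.28 to 0.455 CPM. At a mean of at least 10 CPM, 102 of these rises but only 19 of these falls remained. No gene was switched on or off by count, since 0 genes of the whole table had no reads in the 4 libraries at 72 h and at least 10 in each at 96 h, and 0 showed the reverse. With a single read in each library as the limit there were 15 and 26.

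Within these limits, the largest rise among genes not called on the third day was that of ENSBTAG00000001842. At 72 h it stood at 2.12, 2.44, 3.25 and 2.09 CPM in replicates A to D, and at 96 h at 23.0, 20.7, 26.9 and 15.2 CPM. All 4 libraries at 96 h were thus far above all 4 at 72 h, and replicate D was the lowest of them. The log2 change was 3.13 ± 0.24 (± standard error; edgeR adjusted p = 1.63e-08), about the same in batch 1 (3.27) and batch 2 (2.99). Its third-day change of -0.46 was not called (edgeR adjusted p = 0.169). It had come from 0.394 ± 0.182 CPM at 0 h (SD, n = 4) to 2.83 ± 1.13 CPM at 24 h, and 3.33 ± 0.723 CPM were measured at 48 h.

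ENSBTAG00000007823 led, within the same limits of level and overlap, the genes that had fallen on the third day and rose on the fourth. It stood at 4.81, 5.92, 4.69 and 5.16 CPM in replicates A to D at 48 h and at 3.19, 2.24, 2.43 and 2.55 CPM at 72 h. At 96 h it reached 24.1, 22.0, 34.3 and 13.0 CPM. The dip at 72 h was present in every library, and the 96 h libraries lay above all others, with replicates C and D as the highest and the lowest of them. The third-day change was -0.97 ± 0.24 and the fourth-day change 3.14 ± 0.23 (± standard error; edgeR adjusted p = 0.00324 and 8.98e-09). At 0 h the gene had 0 to 2 counts per library.

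Among genes not called on the third day that averaged at least 10 CPM and had no overlap, ENSBTAG00000031346 fell most. It held 30.4, 30.0, 26.0 and 32.2 CPM at 72 h and 10.4, 10.5, 10.8 and 11.5 CPM at 96 h in replicates A to D. The 96 h libraries were close together and all below those at 72 h. The log2 change was -1.46 ± 0.13 (± standard error; edgeR adjusted p = 2.25e-08), after a third-day change of -0.27 (edgeR adjusted p = 0.0721). The mean of 10.8 ± 0.477 CPM at 96 h lay within the spread of the 24 h libraries, 11.5 ± 2.28 CPM (SD, n = 4 each), and far above its 0 h level of 0.0953 ± 0.0708 CPM.

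ENSBTAG00000012921 had the largest fall after a third-day rise among genes within these limits. At 0 h it held 19.8 ± 1.11 CPM (SD, n = 4), at 24 h 20.0 ± 1.85 CPM and at 48 h 23.4 ± 2.41 CPM. The second-day rise of 0.23 on the log2 scale was small but called (edgeR adjusted p = 0.0344). At 72 h it held 40.5, 40.8, 36.9 and 39.0 CPM in replicates A to D, and at 96 h 10.4, 10.5, 11.7 and 14.7 CPM. Every library at 72 h was above every other library of the series, and every library at 96 h below. The third-day rise of 0.74 (standard error 0.09) was followed by a change of -1.72 on the fourth day (standard error 0.10, edgeR adjusted p = 1.08e-06 and 1.66e-11).

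**Figure D1:**
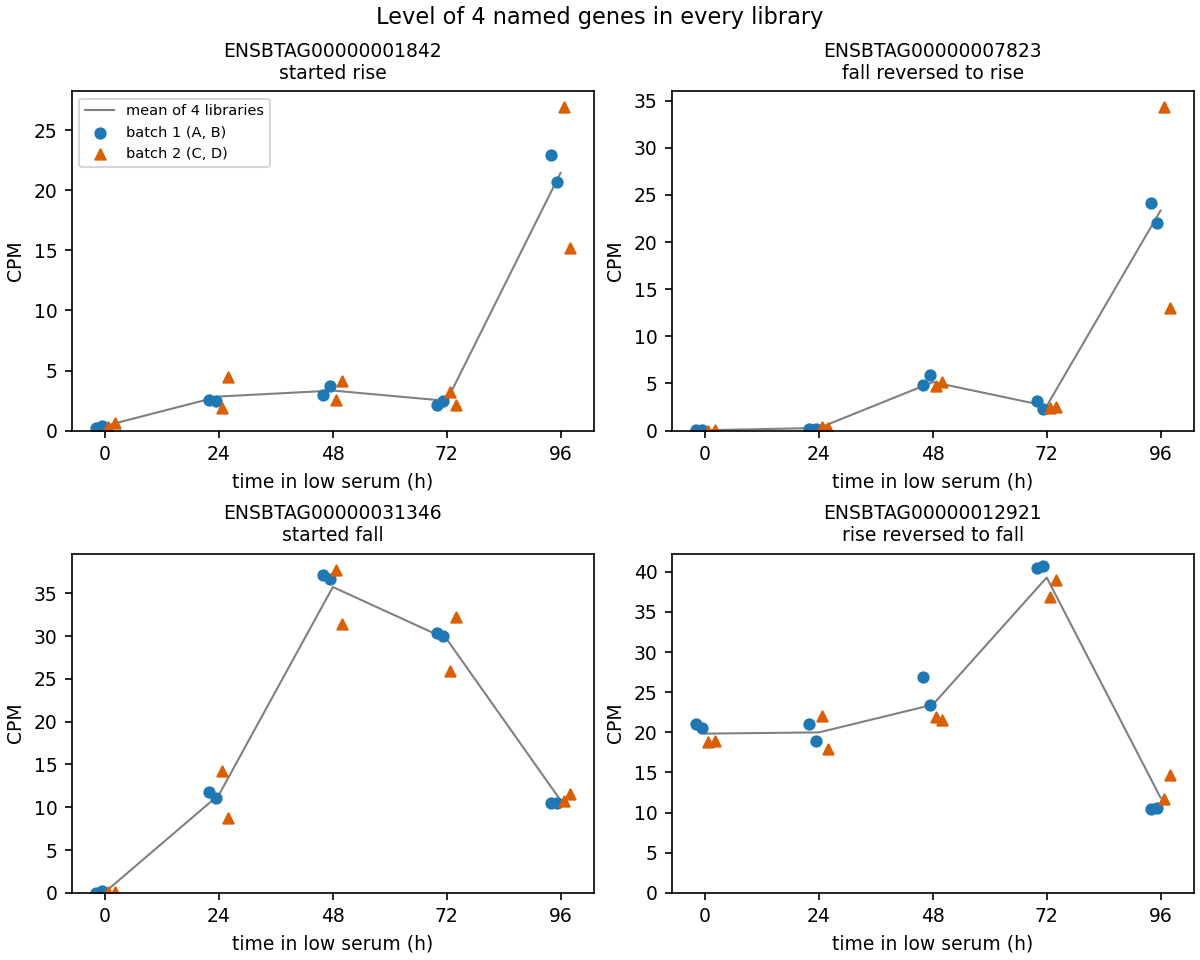
Level of 4 named genes (y axis, CPM) at 0 to 96 h in low serum (x axis), with 1 point per library, colour and shape for the batch and a line through the mean of 4 libraries. For all 4 genes the points at 96 h do not overlap those at 72 h, and ENSBTAG00000001842 and ENSBTAG00000007823 spread most between replicates C and D at 96 h.

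Each fourth-day call was then set beside the third day of the same gene. On the third day 6065 genes had been called (41.4%), 3028 higher (20.7%) and 3037 lower (20.8%). Of the 5459 fourth-day calls, 2653 (48.6%) started on that day, meaning that the gene had not been called on the third, 1639 (30.0%) reversed a third-day change and 1167 (21.4%) continued one. Starts comprised 1376 rises and 1277 falls. The reversals were 822 rises that turned to falls and 817 falls that turned to rises, and the continuations were 631 rises and 536 falls. Both days share the 72 h libraries, so a library that reads a gene too high at 72 h makes a rise before it and a fall after it. These counts describe the classes and are checked with separate libraries below. With library sizes as scaling, which moved the median of all genes by -0.07 on the fourth day and -0.11 on the third, the continued classes were 333 rises and 1124 falls and the started ones 812 rises and 2142 falls.

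Seen from the third day, about as many changes had no further call as were carried on or undone. Of the 3028 third-day rises 631 (20.8%) were called higher again, 822 (27.1%) lower, and 1575 (52.0%) were not called. Of the 3037 falls 536 (17.6%) were called lower again, 817 (26.9%) higher, and 1684 (55.4%) were not called. The change in pace itself was tested as the fourth-day change minus the third-day change, and 4745 genes (32.4%) passed, 16.2% upward and 16.3% downward (edgeR quasi-likelihood test). Among the started classes 643 of 1376 rises and 623 of 1277 falls passed this test, so for the others a difference between both days was not shown. Among the continued classes 120 of 631 rises and 71 of 536 falls passed.

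Classes formed from the changes in one batch kept their course in the other batch. The other batch entered the choice only through the filter, the scaling and the estimate of the spread, which used all 20 libraries. For the 456 genes that fell and then rose in batch 1, the median changes in batch 2 were -0.63 on the third day and 0.41 on the fourth. The 454 genes of this class in batch 2 had medians of -0.42 and 0.49 in batch 1. The 387 genes that rose and then fell in batch 1 had medians of 0.42 and -0.31 in batch 2, and the 508 chosen in batch 2 had 0.28 and -0.28 in batch 1. For all genes tested these medians lay between -0.01 and 0.02.

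The reversals had small median net changes over both days, with quartiles on both sides of 0. From 48 h to 96 h, a comparison that uses no 72 h library, the median net change of the genes that fell and then rose was -0.16 in batch 2 (quartiles -0.42 and 0.02) and 0.07 in batch 1 (quartiles -0.20 and 0.37). That of the genes that rose and then fell was 0.11 (quartiles -0.03 and 0.28) and -0.02 (quartiles -0.18 and 0.13). In batch 2 most genes of each kind thus stayed on the side of their third-day change, while in batch 1 they went either way. Over all genes the quartiles were -0.26 and 0.26 in batch 2 and -0.32 and 0.29 in batch 1. Single genes ended far off, such as ENSBTAG00000007823 above. The genes of the second kind had their highest mean of the 5 time points at 72 h in 75.7% of cases in batch 2 and 65.4% in batch 1, where all genes had it there in 17.3% and 15.9%. Those of the first kind were lowest at 72 h in 59.2% and 43.8%, against 19.8% and 17.4% of all genes. A choice by opposite changes on both days already favours 72 h over 48 h and 96 h, so these shares largely restate the choice.

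Continued rises belonged to longer trends, continued falls less so. Genes that rose on both days in batch 1 had median changes in batch 2 of 0.22, 0.72, 0.50 and 0.31 from the first day to the fourth, and 91.8% of them were highest at 96 h. Those chosen in batch 2 had 0.25, 0.87, 0.52 and 0.57 in batch 1, with 92.2% highest at 96 h. Of all genes, 21.7% in batch 2 and 23.1% in batch 1 were highest at 96 h. A choice by rises on both days already favours 96 h over 48 h and 72 h. The continued falls, by contrast, had median first-day changes near 0, at 0.08 in batch 2 and -0.16 in batch 1. They then went down by medians of -0.31, -0.46 and -0.36 in batch 2 and of -0.33, -0.51 and -0.35 in batch 1 on the later days.

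Genes that started on the fourth day had smaller median changes on the days before. For the third day the choice nearly fixes this, since it required no third-day call. The 1540 started rises of batch 1 had median changes in batch 2 of 0.00, 0.03 and -0.03 on the first 3 days and 0.28 on the fourth. The 1477 started falls had -0.01, 0.01 and 0.03 and then -0.24. In the other direction, the 875 started rises of batch 2 had 0.14, 0.09, 0.01 and 0.45 in batch 1, and the 829 started falls -0.16, 0.01, -0.01 and -0.31. These medians hide early changes in both directions. At 0 h, relative to 72 h, the quartiles of the started rises were -0.74 and 0.61 in batch 2 and -1.15 and 0.35 in batch 1. Those of the started falls were -0.70 and 0.49 in batch 2 and -0.58 and 0.67 in batch 1. All genes had -0.69 and 0.71 in batch 2 and -0.70 and 0.67 in batch 1. Many started genes had thus moved before the fourth day, as had many of all genes tested.

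**Figure D2:**
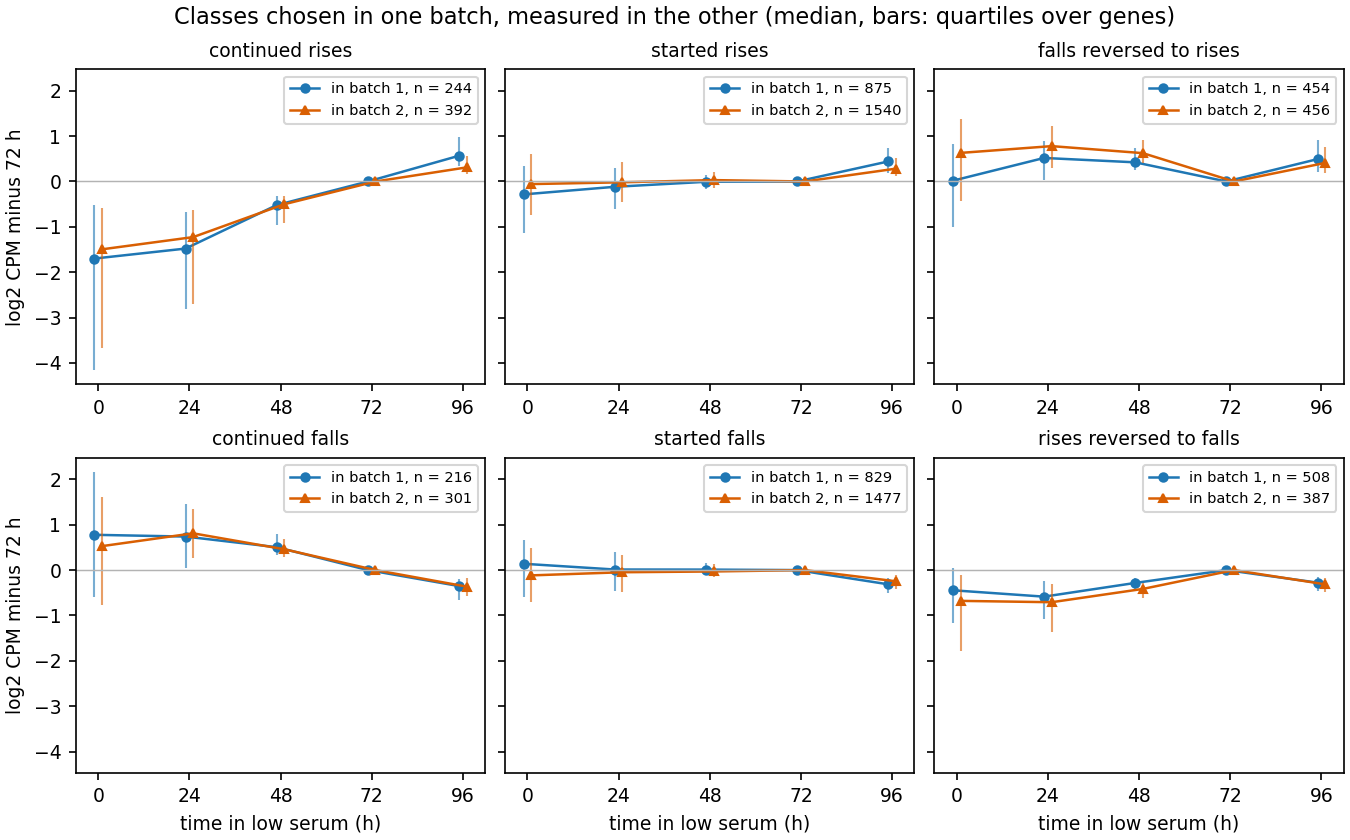
Median log2 CPM relative to 72 h (y axis) at 0 to 96 h (x axis) for the 6 classes, with the genes picked from one batch and the values from the other, n genes in the legend and bars for the quartiles over genes. The medians of the started classes lie nearer to 0 at 0 h, 24 h and 48 h than at 96 h, which the choice favours at 48 h. Their bars reach to both sides of 0 at these earlier times. The reversed classes have their turn at 72 h by the way they were chosen, and the continued rises climb from 0 h on.

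A second way to keep both days apart took the third day from one batch and the fourth from the other. In batch 1 the third day had 3591 calls (24.5%, with 12.1% higher and 12.4% lower), and in batch 2 4367 (29.8%, with 15.0% higher and 14.8% lower). Genes that had moved at least 2-fold on the third day, in either direction, were more often called higher than lower on the fourth. Of 228 genes that rose at least 2-fold on the third day in batch 1, 29.4% were called higher and 10.5% lower on the fourth day in batch 2, where 10.7% and 10.6% of all genes were called. Of 291 genes that fell at least 2-fold, 22.7% were called higher and 9.62% lower. With the batches exchanged, 33.4% of 290 risers and 28.8% of 371 fallers were called higher and 13.1% and 9.97% lower, with 16.3% and 14.8% for all genes. The share called higher was thus above that of all genes for steep risers and steep fallers alike, and the share called lower was at or below it. These genes were scarce. The fallers had a median level of 2.08 CPM when chosen in batch 1 and 1.47 CPM when chosen in batch 2. The risers had 7.54 and 6.25 CPM, and all genes tested 18.3 CPM. A further fall is hard to call at such low levels.

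Among genes averaging 10 CPM or more over the libraries at 72 h and 96 h there was a wider gap. Because this level includes 96 h, genes low at 72 h can pass it by rising. That favours calls of higher among the fallers, and the share over all genes at that level does not correct for it. In batch 2, 41.0% of 105 steep risers and 52.8% of 72 steep fallers of batch 1 were called higher on the fourth day, against 12.3% of all genes at that level. In batch 1 the shares were 47.2% of 127 and 57.1% of 63 genes chosen in batch 2, against 18.6%. The median fourth-day change of these fallers was 0.53 in batch 2 and 0.49 in batch 1, and it stayed positive with library sizes as scaling (0.44 and 0.41). Smaller third-day changes went with calls in both directions. Third-day rises under 2-fold were called lower in 19.3% and higher in 12.9% of 1543 genes in batch 2, and lower in 22.7% and higher in 18.2% of 1906 genes in batch 1.

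**Figure D3:**
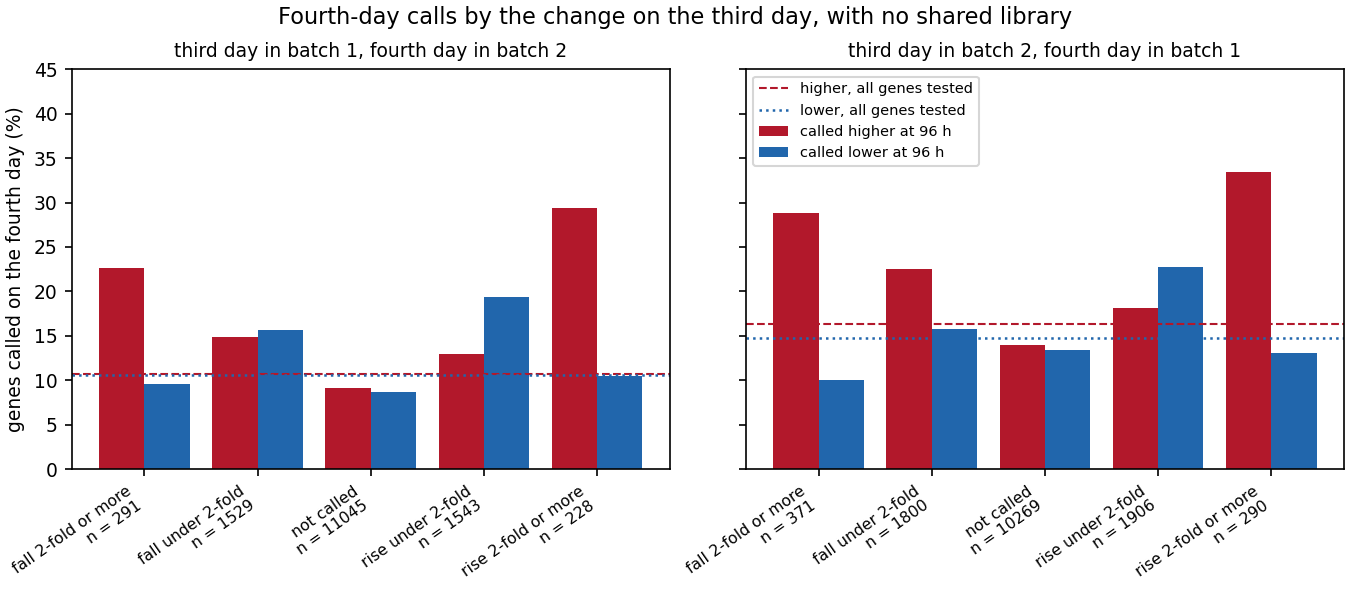
Share of genes called higher (red) and lower (blue) on the fourth day (y axis, %) by their change on the third day (x axis, n genes under each pair), with the days taken from different batches and lines for all genes tested. The red bars are highest for 2-fold changes in either direction, and the blue bars are highest for rises under 2-fold.

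Genes with large fourth-day changes had also been mobile on the first and second days, which were measured in other libraries. Unlike the fourth day, the first day includes the move from 20% to 2% serum. Of the 363 genes with a fourth-day rise of 2-fold or more, 40.5% had been called with a 2-fold rise from 0 h to 24 h and 10.2% with a 2-fold fall, where the shares over all genes tested were 12.6% and 5.38%. Of the 172 genes with a 2-fold fall, 54.1% had risen 2-fold on the first day and 7.56% had fallen 2-fold. From 24 h to 48 h, 28.1% of the 363 genes rose 2-fold and 7.44% fell 2-fold. Of the 172 genes 47.1% and 9.88% did so, and of all genes tested 8.65% and 4.89%. The median first-day change was 0.77 for the risers and 1.70 for the fallers, beside -0.02 for all genes, and it was positive for both under library sizes alone (0.84 and 1.77). At a mean of at least 10 CPM, 60.8% of the 102 risers and 52.6% of the 19 fallers had risen 2-fold on the first day, against 9.64% of 8966 genes at that level. For fourth-day changes of any size the pattern was another. Of the risers 40.8% were called higher and 31.8% lower at 24 h than at 0 h, of the fallers 33.2% and 40.9%, and of all genes 31.7% and 34.5%. The median first-day change was 0.07 for these risers and -0.06 for these fallers.

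Most fourth-day changes had the same direction in both batches, with fewer calls in batch 2. Within the model of 10 groups by time and batch, 4553 genes (31.1%) were called in batch 1 and 3126 (21.4%) in batch 2, and 2004 were called in both in the same direction. These are 44.0% of the calls of batch 1 and 64.1% of those of batch 2. In opposite directions, 2 genes were called. Of the genes called in batch 1, 91.1% had the same sign in batch 2, and of those called in batch 2, 93.9% had it in batch 1. Over all 14636 genes, called or not, 70.1% had the same sign in both batches, and 63.9% of those under 1 CPM. With 2 libraries per time point, these counts lean on single libraries. Batch 1 called 2784 genes without replicate A at 72 h, 2882 without replicate A at 96 h and 2836 without replicate B at 96 h. Batch 2 called 2055 without replicate C at 72 h, 1424 without replicate D at 72 h and 1650 without replicate C at 96 h.

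Agreement was higher for larger changes among the genes called in batch 1. The sign was the same in batch 2 for 88.3% of 1093 genes changed under 1.25-fold, 94.2% of 1011 changed 1.5 to 2-fold and 94.5% of 598 changed 2 to 4-fold. The size was smaller in batch 2. The 598 genes had a median change of 1.27 in batch 1, which chose them, and of 0.80 in the same direction in batch 2. The 343 genes called in batch 2 at 2 to 4-fold had a median of 1.28 there and of 1.25 in batch 1, with the same sign in 96.2%.

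Agreement also grew with abundance. As a description across genes, which share the same libraries and are no replicates, the fourth-day changes of both batches had a Pearson correlation of 0.577 over all 14636 genes, 0.406 over the 1905 genes under 1 CPM and 0.817 over the 2269 genes at 100 CPM or more (Spearman 0.554, 0.426 and 0.729). The third-day changes had correlations of 0.739, 0.482 and 0.952 over the same genes.

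The order of the 2 days differed between the batches. The median size of the change over all genes was 0.24 on the fourth day and 0.21 on the third in batch 1, and 0.21 on the fourth and 0.24 on the third in batch 2. Calls followed the same order, with 4553 on the fourth day and 3591 on the third in batch 1, and 3126 and 4367 in batch 2. Whether the order of the days differs between the batches was not tested.

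**Figure D4:**
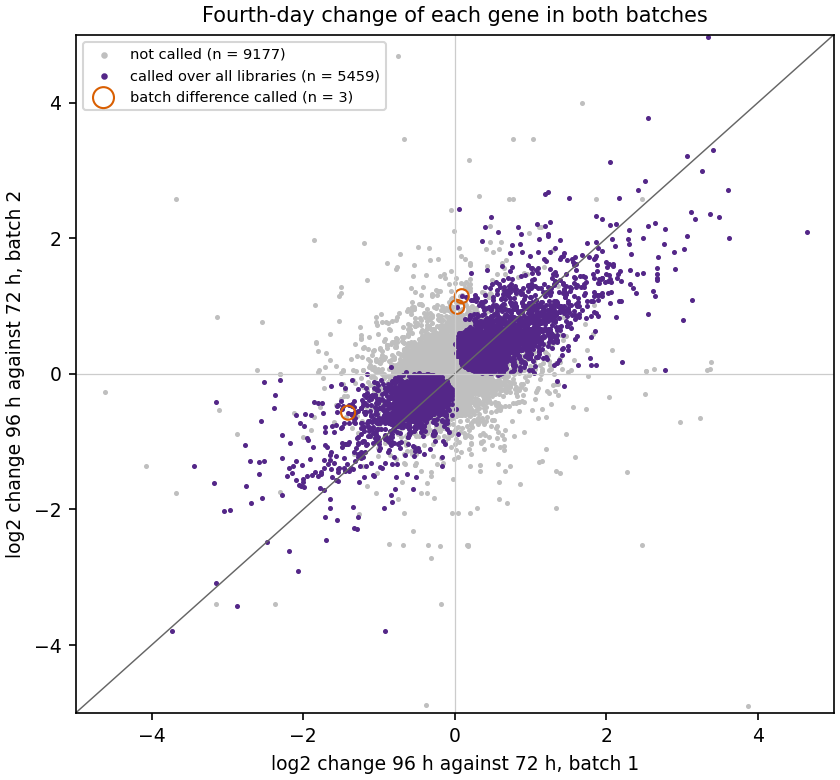
Fourth-day log2 change of each gene in batch 1 (x axis) and batch 2 (y axis), with called genes in purple, the line of equal change and circles for the genes whose change was called different between the batches. Called genes fall along the diagonal by the way they were chosen, and 9 genes with larger changes lie beyond the axes.

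The libraries of a batch were read with genes chosen in the other. The 453 genes at least 2-fold higher on the fourth day in batch 1 had medians of 1.10 in replicate C and 0.74 in replicate D at 96 h, as log2 CPM relative to the mean of batch 2 at 72 h, where both 72 h libraries lay at 0.04 and -0.04. The 260 genes with a 2-fold fall in batch 1 stood at -0.86 in replicate C and -0.59 in replicate D. Replicate D had thus moved less than replicate C in both directions. In batch 1 the 282 rising genes of batch 2 stood at 1.25 in replicate A and 1.18 in replicate B, and the 114 falling ones at -1.22 and -1.32.

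The pair of 96 h libraries in batch 2 was also the least alike. Over the 8966 genes that averaged 10 CPM or more, the SD of the log2 difference was 0.185 between replicates C and D at 96 h, 0.141 between A and B at 96 h, 0.169 between A and B at 72 h and 0.140 between C and D at 72 h. Replicate D had 34473917 counts and replicate C 21100797. Set against the sampling noise of the counts, the mean squared difference was 14.0 for C and D at 96 h and 13.8 for A and B at 72 h. It was 7.82 for A and B at 96 h and 7.79 for C and D at 72 h. By that measure the 96 h pair of batch 2 was hardly less alike than the 72 h pair of batch 1. The part of depth in these differences was not tested. The fourth-day test called 4393, 4640, 4762 and 5740 genes when replicate A, B, C or D at 96 h was left out, and between 4773 and 5003 when 1 of the 72 h libraries was. The count was thus lowest without replicate A and rose only without replicate D.

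**Figure D5:**
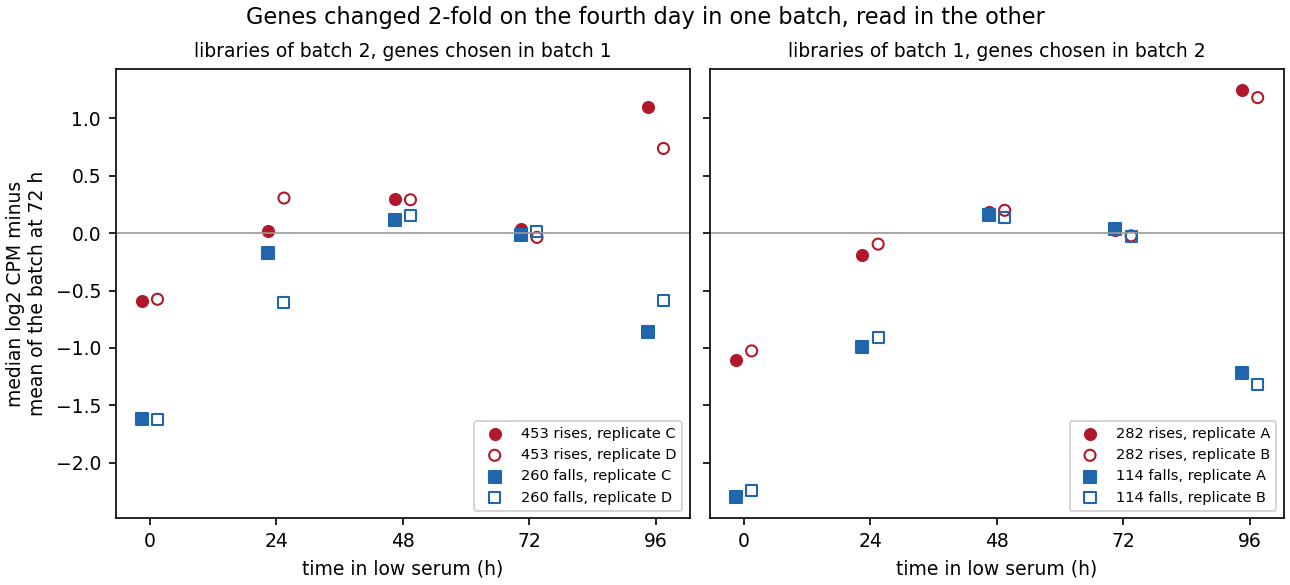
Median log2 CPM (y axis), relative to the batch mean at 72 h, of genes that changed at least 2-fold on the fourth day in the other batch, with 1 point per library at 0 to 96 h (x axis), circles for rises and squares for falls, and filled and open symbols for the 2 replicates of the batch. All points at 96 h lie apart from those at 72 h, and replicate D at 96 h lies nearer to 0 than replicate C.

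The fourth-day change was called different between the batches for 3 genes (0.0205% of those tested, edgeR quasi-likelihood test of the difference). With 2 libraries per time point in each batch, a gene without this call is not shown to agree. They lie outside the naming rule and were picked after their values were seen. ENSBTAG00000021272 fell in both batches but more in batch 1. It held 99.1 and 106 CPM in replicates A and B at 72 h and 39.4 and 37.8 CPM at 96 h, while replicates C and D went from 78.0 and 76.0 to 48.3 and 54.8 CPM. The changes were -1.41 in batch 1 and -0.57 in batch 2 (edgeR adjusted p of the difference = 0.00725).

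The other two rose in batch 2 and barely moved in batch 1. ENSBTAG00000009703 stood at 138, 143, 125 and 117 CPM in replicates A to D at 72 h and at 143, 143, 228 and 251 CPM at 96 h, with changes of 0.03 in batch 1 and 0.99 in batch 2. ENSBTAG00000040053 stood at 28.5, 28.5, 24.5 and 22.8 CPM at 72 h and at 30.8, 29.9, 50.3 and 53.9 CPM at 96 h, with changes of 0.09 and 1.15 (edgeR adjusted p of the difference = 0.0198 for each). In both genes replicates C and D were the lowest at 72 h and the highest at 96 h. At an unadjusted p under 0.05 the test had 2200 of 14636 genes, where about 1 in 20 would pass if no gene differed. The 3 calls thus do not give the extent of the difference between the batches. DESeq2 called 13, and without the low-count filter 861 were called. Leaving out single libraries gave 0 calls without replicate B, C or D at 72 h or replicate A, B or D at 96 h, 1 without replicate A at 72 h and 71 without replicate C at 96 h.

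The most abundant genes took a larger share of the counts at 96 h. The 10 most abundant genes of each library held 9.86, 9.17, 9.97 and 9.40% of all counts in replicates A to D at 72 h and 11.4, 11.2, 11.9 and 11.5% at 96 h. Every library at 96 h was above every library at 72 h, a difference of 1.88 percentage points (two-sided exact permutation test, p = 0.0286, the smallest p that 4 against 4 libraries allow, and 0.0286 after adjustment over the 3 measures of this kind). The 10 leading genes at 72 h and at 96 h had 9 in common, and the leaders of 72 h themselves went from 9.56 ± 0.342% to 11.2 ± 0.340% (SD, n = 4 each). The 100 most abundant genes of each library went from 27.2 ± 0.451% to 30.4 ± 0.265%.

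Called changes also shifted the share of all reads. The 2388 genes called higher in batch 1 held 22.0% and 21.6% of the counts of replicates C and D at 72 h and 28.1% and 25.8% at 96 h, after 21.1% and 20.6% at 48 h. The 2165 genes called lower in batch 1 went from 18.6% and 19.2% to 14.3% and 15.5%. Genes called higher in batch 2 held 16.3% and 16.1% of the counts of replicates A and B at 72 h and 22.1% in each at 96 h. The shift was smaller in replicate D than in replicate C for both groups of genes.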

How the data were processed

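Per the labels' protocols, a TruSeq stranded kit was used on polyadenylated RNA, with 75 bp reads. The authors deposited raw read counts per gene. The tools were STAR 2.7 and featureCounts on bosTau9, per the submitters' processing notes. For their settings, strand mode included, and for the annotation, the entry is "not given in the sources used here". All 20 columns were matched to libraries by name, and 0 rows named no gene.

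The main tests used edgeR 4.0.16 under R 4.3.3. Its filterByExpr (minimum count 10, minimum total 15) kept 14636 of 27607 genes. Library sizes were scaled by TMM. A robust quasi-likelihood model with time and batch was fitted to all 20 libraries, and contrasts gave the third day, the fourth day and their difference. A second model with 10 time-by-batch groups gave the changes within each batch and their difference. Tests were two-sided with Benjamini-Hochberg adjustment over all genes tested, called under 0.05. Standard errors are the log2 change over the root of the F statistic. Log2 CPM used a prior count of 2. Deviations from the time means of libraries with the same letter had correlations from 0.42 to 0.83 between 48 h and 72 h, over 0.1 in all 4 pairs, so letters were taken to pair these libraries. This comes from the data, not the labels, and the letters also carry the batch. Within batches the correlations between 48 h and 72 h were 0.29 in batch 1 and 0.14 in batch 2. Between 72 h and 96 h 2 of 4 pairs passed 0.1, and within batches the correlations were 0.53 in batch 1 and 0.06 in batch 2. The main model held batch and not letters. The scripts were tested on simulated data.

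Named genes were called on the fourth day, averaged at least 10 CPM over 8 libraries, had no overlap between 72 h and 96 h, and had the largest change of their class, for 2 rising and 2 falling classes. Classes, lists and rules were chosen with earlier results of these data known. Descriptions of earlier days, levels, abundance and single libraries were added after the data were examined. DESeq2 1.42.0, other scalings, no filter, no batch term, a replicate block, fewer libraries and other thresholds were tried. Gene lists were not run.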

Additional observations from a re-analysis of the deposited data

Results flagged for a closer look

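At 96 h, replicate C had a TMM factor of 0.837, where the other 3 libraries lay between 0.858 and 0.861, and held 30.8% of its counts in its 100 most abundant genes, where the others held between 30.2% and 30.3%. Both values lay farther from the other 3 than Dixon's test allows. These were 2 of 45 sets of 4 values checked, and chance gives about 1 in 20. Without this library the fourth day had 4762 calls, inside the range of 4393 to 5740 over the other libraries at 96 h.

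The fourth-day change in batch 2 minus that in batch 1 was 0.83 on the log2 scale for ENSBTAG00000021272, 0.96 for ENSBTAG00000009703 and 1.05 for ENSBTAG00000040053 (edgeR adjusted p = 0.00725, 0.0198 and 0.0198). The call depends on the libraries, since 71 genes passed without replicate C at 96 h and 0 without any 1 of 6 of the other libraries at these times.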

How the results depend on the processing

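Of 225 recomputed counts of genes, 194 stayed within 1.5 times the reported value and 31 did not. The fit to each batch alone was added after the data were examined. With library sizes alone, fourth-day calls were 1984 higher and 3967 lower and third-day calls 1878 and 4433, and the classes moved to 333 continued rises, 1124 continued falls, 812 started rises and 2142 started falls. An adjusted p under 0.01 left 3634 fourth-day calls, 2965 changes of pace, 2666 calls in batch 1 and 1562 in batch 2, 366 continued rises, 289 continued falls, 450 rises and 445 falls that reversed, and 1 batch difference. A test against a 1.5-fold minimum, a stricter question, called 368 genes on the fourth day and 553 on the third. The batch difference had 861 calls without the low-count filter and 13 with DESeq2, and the cause was not tested. Without single libraries it ranged from 0 to 71, batch 1 from 2784 to 4633 and batch 2 from 1424 to 3093, where the lone library left at a time was assumed to vary like the others, and no other count moved beyond 1.5 times without a single library. The named genes kept direction and call in 19 of 19 alternatives each, which their choice nearly fixed.

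With the replicate block (letters A to D in place of batch) 5290 genes were called on the fourth day, 5896 on the third and 4570 for the change of pace. No count of calls moved beyond 1.5 times, and the 4 named genes kept their calls. Between 72 h and 96 h same-letter libraries had correlations from -0.35 to 0.61, over 0.1 in 2 of 4 pairs. Within batches they were 0.53 in batch 1 and 0.06 in batch 2. Of 8 libraries, 4 were most like their own letter, so pairing was not taken to hold for the fourth day.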

Other observations

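ENSBTAG00000009703 and ENSBTAG00000040053, which rose on the fourth day in batch 2 and not in batch 1, stand 3 rows apart in the deposited table. The meaning of the order of that table is not given in the sources used here. Both were already at different levels in the batches at 48 h, with 131 and 188 CPM in batches 1 and 2 for ENSBTAG00000009703 and 27.2 and 37.4 CPM for ENSBTAG00000040053, and the order was the opposite at 72 h, with 140 and 121 CPM and with 28.5 and 23.6 CPM (n = 2 each). ENSBTAG00000021272 was higher in batch 1 at 48 h and 72 h and higher in batch 2 at 96 h.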
